A study of Mus musculus with 6 samples.

Results

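The 8 genes described here govern how muscle mitochondria burn fuel: the pyruvate dehydrogenase kinases Pdk1, Pdk2, Pdk3 and Pdk4, the pyruvate dehydrogenase phosphatases Pdp1 and Pdp2, and the uncoupling proteins Ucp2 and Ucp3. They were taken by gene symbol from 23152 genes measured on a whole-transcript microarray, and all 8 had rows, with 94 of 233753 probe sets that carry exactly 1 symbol. RNA came from the soleus, a slow and oxidative hindlimb muscle, of male mice, 18 weeks old and without food for 14 h. The knockout group (MKO, 3 mice, 1 array each) carried Gna13 flox/flox and Ckmm-Cre, a Cre recombinase driven by the muscle creatine kinase promoter. The control group (WT, 3 mice, 1 array each) carried the same floxed Gna13 alleles without Cre. Both groups were fasted, so no fed state was measured, and no mice with Cre and unfloxed alleles were analysed here. The deletion is aimed at cells that use that promoter, and vessel, nerve and connective tissue cells in the muscle keep Gna13. Gna13 encodes Gα13, the α subunit of a heterotrimeric G protein that signals to RhoA.

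The pyruvate dehydrogenase complex turns pyruvate into acetyl-CoA inside mitochondria and so decides whether glucose carbon is oxidised. The kinases phosphorylate the complex and switch it off, and the phosphatases remove the phosphate and switch it on. During fasting, skeletal muscle raises Pdk4 and Ucp3 along with its use of fatty acids, and peroxisome proliferator-activated receptors (PPARs) and FoxO factors are known to act on these genes. Ucp3 is a mitochondrial inner membrane carrier found mainly in skeletal muscle and brown fat, while its relative Ucp2 is widely expressed and is well known in immune cells.

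The promoters of Pdk4 and Ucp3 are shown because these were the 2 genes with the smallest unadjusted p, and that of Ucp2 because Ucp2 is the next gene after Ucp3 on chromosome 7. Each window runs from 250 bases before to 50 bases after the gene's start, 5′ to 3′ along the gene, from RefSeq on build GRCm38.p6, with chr6:5496229-5496528 (minus strand) for Pdk4, chr7:100472741-100473040 (plus strand) for Ucp3 and chr7:100493108-100493407 (plus strand) for Ucp2. Capitals mark AGGTCA, the core site of nuclear receptors, and GGGCGG, the site of Sp1, each searched on both strands. The sequences follow.
Pdk4: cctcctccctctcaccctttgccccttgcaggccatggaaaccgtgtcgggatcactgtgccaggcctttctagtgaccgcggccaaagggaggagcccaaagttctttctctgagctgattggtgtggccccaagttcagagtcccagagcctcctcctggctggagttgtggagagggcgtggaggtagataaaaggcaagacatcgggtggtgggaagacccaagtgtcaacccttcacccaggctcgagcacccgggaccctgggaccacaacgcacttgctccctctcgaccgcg
Ucp3: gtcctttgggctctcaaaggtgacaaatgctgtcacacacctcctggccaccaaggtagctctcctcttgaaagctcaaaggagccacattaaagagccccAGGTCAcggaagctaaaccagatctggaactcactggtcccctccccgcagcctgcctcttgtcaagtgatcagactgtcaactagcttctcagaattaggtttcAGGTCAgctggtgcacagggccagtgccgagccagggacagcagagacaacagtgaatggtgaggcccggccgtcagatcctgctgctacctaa
Ucp2: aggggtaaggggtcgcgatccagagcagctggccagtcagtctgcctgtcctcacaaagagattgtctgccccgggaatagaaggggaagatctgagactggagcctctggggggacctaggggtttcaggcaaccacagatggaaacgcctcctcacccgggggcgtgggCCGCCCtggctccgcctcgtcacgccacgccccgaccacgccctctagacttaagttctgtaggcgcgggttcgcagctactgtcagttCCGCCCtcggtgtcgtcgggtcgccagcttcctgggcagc
Ucp3 held AGGTCA 2 times, starting 149 and 44 bases before the gene's start, and no GGGCGG. Ucp2 held GGGCGG 2 times, both on the opposite strand, and no AGGTCA, while the Pdk4 window held neither. Of 32851 promoter windows of this length, 16.3% held AGGTCA and 35.7% held GGGCGG. The same search covered 9 windows of 7 members. AGGTCA was found in 1 of them, that of Ucp3, and GGGCGG in 4. None held 2 copies of AGGTCA in a row with any 1 base between them (0.0396% of all windows), the FoxO motif GTAAACA (3.65%) or the ERR motif TCAAGGTCA (0.423%). These are matches of letters in a short window.

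Values are on the log2 scale throughout, as the authors deposited them, and probe sets of a gene were averaged on each array. The median over all rows lay between 4.87 and 4.93 on the MKO arrays and between 4.92 and 4.95 on the WT arrays. The genotype was checked on Gna13 itself. Its probe set 17257825 stood at 3.43, 4.26 and 4.33 on the MKO arrays, below 5.48, 6.23 and 6.16 on the WT arrays (−1.95, SE 0.40, limma adjusted p = 0.977 over all rows). Of its 7 probe sets, 3 stood higher on every MKO array, where 4.81% of all rows did. Averaged over its probe sets, Gna13 stood at 6.77 in MKO and 6.73 in WT, a difference of 0.04 (SE 0.13) with overlapping arrays. Muscle genes were high in both groups, with the skeletal actin Acta1 between 12.43 and 12.62 in MKO and between 12.51 and 12.60 in WT, and the slow myosin Myh7 between 10.92 and 10.94 in MKO and between 10.90 and 11.20 in WT. In a whole muscle, fewer cells of a type and less RNA per cell cannot be told apart.

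None of the 8 genes differed between MKO and WT at an adjusted p under 0.05 (limma, adjusted p = 0.9997 for each), and neither did any of the 23152 genes (0%). At an unadjusted p under 0.05 there were 2 members, Ucp3 and Pdk4, both higher in MKO, where 1.92% of all genes were higher and 2.41% lower by the same rule. The arrays of the groups did not overlap for 3 members, with Pdk4 higher and Pdp1 and Ucp2 lower in MKO, where 9.25% of all genes did not overlap (4.26% higher and 4.99% lower). In all, 5 members stood higher and 3 lower, where 46.6% of all genes stood higher and 53.4% lower. The median difference was 0.10 for the members and −0.01 over all genes. The local pooled error (LPE) test that the study names called 0 members and 25 genes in all (0.108%), and gave an unadjusted p under 0.05 for 1 member, Ucp3, and for 3.33% of all genes. Among the 94 probe sets of the members, 0 passed the adjusted threshold. At an unadjusted p under 0.05, 9 stood higher and 3 lower, where 2.2% and 2.8% of all rows did. The arrays did not overlap for 15 of the 94, where 9.86% of all rows did not.

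**Figure D1:**
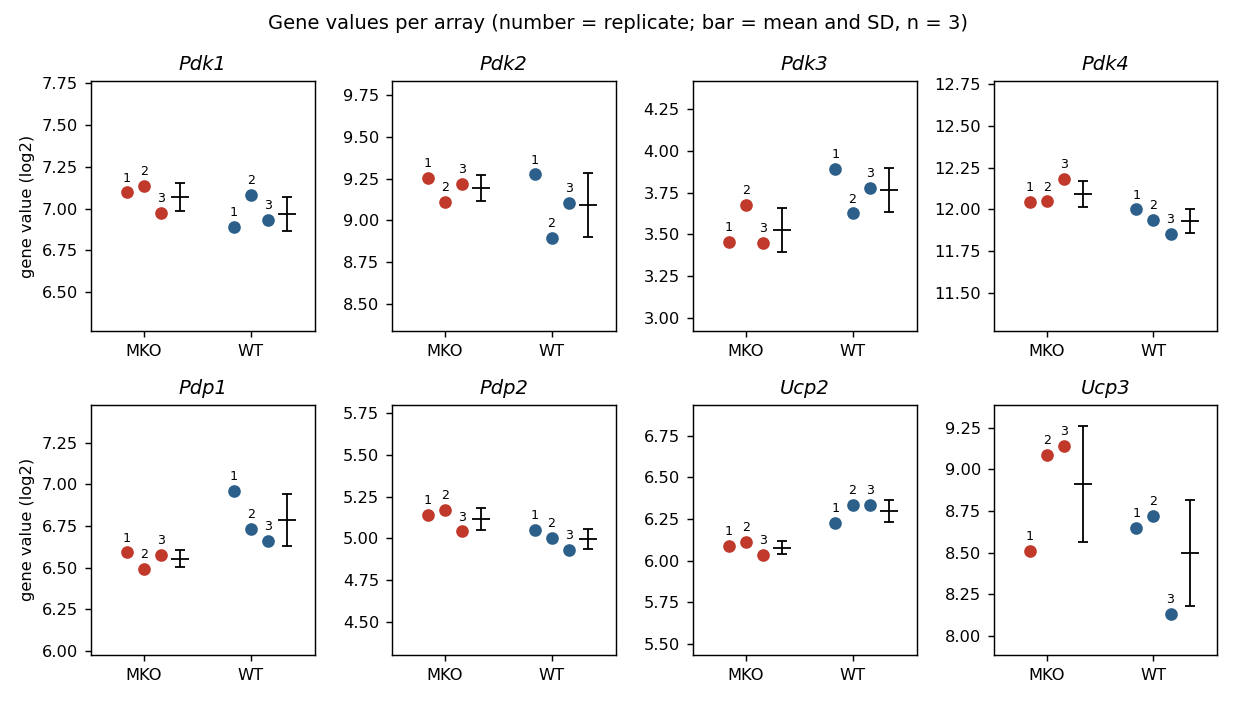
Gene values (log2) of the 8 members on each array, with the MKO arrays in red on the left and the WT arrays in blue on the right of each panel, numbered by replicate, and the mean and SD of 3 arrays beside them. Every panel spans the same range of 1.5 log2 units. Pdk4 lies higher, and Pdp1 and Ucp2 lower, on every MKO array, while Ucp3 has the widest spread within both groups.

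Pdk4, the kinase that fasting raises most in muscle, stood slightly higher in MKO. Its values were 12.05, 12.05 and 12.18 on the MKO arrays, against 12.0, 11.94 and 11.85 on the WT arrays. Every MKO array lay above every WT array, by 0.05 at the closest. The means were 12.09 ± 0.08 in MKO and 11.93 ± 0.07 in WT (SD, n = 3 each), a difference of 0.16 (SE 0.06, 95% interval 0.03 to 0.29, unadjusted p = 0.0192), or 11.9% higher. The interval does not reach a 1.5-fold change in either direction. Of its 12 probe sets, 11 stood higher in MKO, where 48.7% of all 269751 rows did, and probe sets of a gene share the same RNA. For 5 of them all MKO arrays lay above all WT arrays, a pattern of 4.81% of all rows. The probe set with the smallest p, 17464657, stood at 12.93, 12.82 and 12.90 in MKO, against 12.71, 12.67 and 12.66 in WT, a difference of 0.20 (SE 0.05, unadjusted p = 0.00555, adjusted p = 0.977 over all rows). The brightest of the Pdk4 values, 12.93, lies close to the highest value in the whole table, and whether such bright probe sets were saturated was not tested. Without MKO replicate 3 the difference was 0.12 (unadjusted p = 0.0703), and without WT replicate 3 it was 0.12 (0.0916). When limma pooled the variance without regard to level, the unadjusted p was 0.233.

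Pdk2, the kinase present in most tissues, did not differ beyond the spread of its arrays. It stood at 9.26, 9.11 and 9.22 in MKO, against 9.28, 8.90 and 9.11 in WT, so the groups overlapped. The difference of 0.10 (SE 0.10, 95% interval −0.11 to 0.32, unadjusted p = 0.328) was carried by 2 dim probe sets, below the median level of all rows, at 0.62 (SE 0.40) and 1.01 (SE 0.54). The 10 brighter probe sets averaged −0.04, and 7 of them lay within 0.1 of no difference. Another of the 10 brighter ones, 17268123, stood lower on every MKO array than on any WT array, at 9.70, 9.59 and 9.69 in MKO, against 9.95, 9.81 and 10.12 in WT. Its difference was −0.30 (SE 0.11, unadjusted p = 0.0257, adjusted p = 0.977 over all rows).

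Pdk1 is the kinase known as a target of hypoxia signalling. Its gene values were 7.10, 7.14 and 6.97 in MKO, against 6.89, 7.08 and 6.93 in WT, again with overlap. The difference was 0.10 (SE 0.11, 95% interval −0.14 to 0.34, unadjusted p = 0.377). Its 4 dim probe sets averaged 0.56, all 4 higher in MKO, and its 14 brighter ones averaged −0.03, with 5 higher and 9 lower. One of the brighter ones went with the dim ones. This was 17371851, the Pdk1 probe set with the smallest p, at 5.92, 5.47 and 5.58 in MKO, against 4.51, 5.36 and 4.35 in WT, with no overlap (0.92, SE 0.37, unadjusted p = 0.0361). The sign of the difference in Pdk1 and in Pdk2 changed when dim probe sets were left out.

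Pdk3 could hardly be measured. Of its 16 probe sets, 15 lay at or below the median level of all rows, with values as low as 0.65. The gene stood at 3.46, 3.68 and 3.45 in MKO, against 3.89, 3.63 and 3.78 in WT, with MKO replicate 2 above WT replicate 2. The difference was −0.24 (SE 0.17, 95% interval −0.60 to 0.12, unadjusted p = 0.178). The probe set with the smallest p, 17543205, was a dim one, at 3.15, 2.70 and 1.45 in MKO, against 3.97, 3.29 and 3.81 in WT (−1.26, SE 0.52, unadjusted p = 0.0408). The 1 brighter probe set, 17543212, stood at 6.88, 6.58 and 6.93 in MKO, against 7.33, 6.94 and 6.98 in WT, a difference of −0.29 (SE 0.21, unadjusted p = 0.206). Its arrays did not overlap, and the closest pair, MKO replicate 3 and WT replicate 2, lay almost together.

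**Figure D2:**
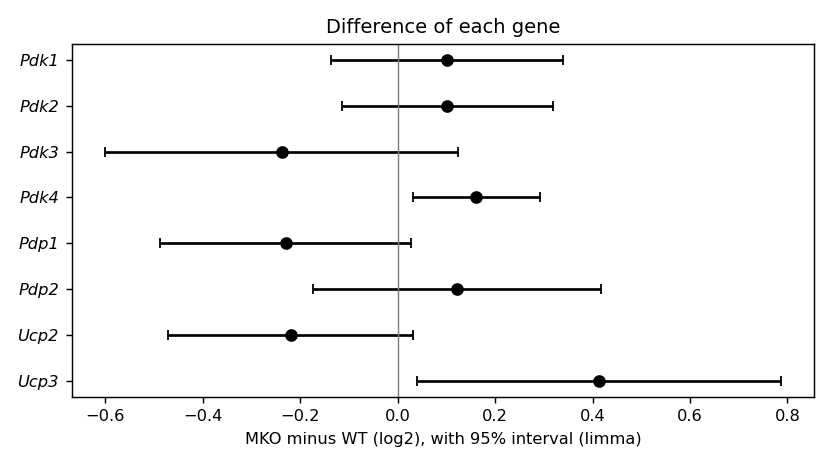
Difference of each gene, MKO minus WT on the log2 scale (points), with its 95% interval from limma (bars). The intervals of Pdk4 (0.03 to 0.29) and Ucp3 (0.04 to 0.79) lie above 0 before adjustment, and those of the other 6 genes include 0.

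Of the phosphatases, Pdp1, the calcium-stimulated form that is the main one in muscle, stood lower in MKO. It had 6.59, 6.50 and 6.58 in MKO, against 6.96, 6.73 and 6.66 in WT. All MKO arrays lay below all WT arrays, by 0.07 at the closest, and WT replicate 1 was the highest. The means were 6.55 ± 0.05 in MKO and 6.78 ± 0.16 in WT (SD, n = 3 each), a difference of −0.23 (SE 0.12, 95% interval −0.49 to 0.03, unadjusted p = 0.0767), or 0.853-fold. Of its 10 probe sets, 9 stood lower in MKO, where 51.3% of all rows did, though none had an unadjusted p under 0.05. In 1 of them, 17423324, the arrays did not overlap, with 7.45, 7.28 and 7.55 in MKO, against 8.03, 7.74 and 7.62 in WT. Without WT replicate 1 the difference of the gene was −0.14 (unadjusted p = 0.323). Pdp2, the phosphatase known for its response to insulin and starvation, was read by only 3 probe sets. It stood at 5.14, 5.17 and 5.04 in MKO, against 5.05, 5.004 and 4.93 in WT. The difference of 0.12 (SE 0.14, 95% interval −0.17 to 0.42, unadjusted p = 0.391) lay within its error, and its 1 probe set above the median level was at −0.07.

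Ucp3 had the widest difference of the 8 genes and also the widest spread. Its values were 8.51, 9.09 and 9.14 on the MKO arrays, against 8.65, 8.72 and 8.13 on the WT arrays. MKO replicates 2 and 3 lay above all WT arrays, while MKO replicate 1 lay below WT replicates 1 and 2. The means were 8.91 ± 0.35 in MKO and 8.50 ± 0.32 in WT (SD, n = 3 each), a difference of 0.41 (SE 0.17, 95% interval 0.04 to 0.79, unadjusted p = 0.0331), or 1.33-fold higher. The size depended on single arrays. Without WT replicate 3 it was 0.23 (unadjusted p = 0.177), without MKO replicate 2 it was 0.33 (0.123), without MKO replicate 3 it was 0.30 (0.128), and without MKO replicate 1 it was 0.61 (0.00114, adjusted p = 0.595). WT replicate 3 was the lowest of the 6 arrays for 7 of the 8 Ucp3 probe sets.

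All 8 Ucp3 probe sets stood higher in MKO, by 0.20 to 0.56, where 48.7% of all rows did. All were above the median level of all rows, and they share the same RNA, so they are not replicates. Probe set 17480738 stood apart from the others in how closely its replicates lay. It had 11.002, 10.79 and 10.81 in MKO, against 10.38, 10.39 and 10.26 in WT. Here MKO replicate 1 was the highest array, not a low one, and the groups were 0.41 apart at the closest. The difference was 0.53 (SE 0.09, unadjusted p = 0.000356, adjusted p = 0.977 over all rows), and it ranged from 0.46 to 0.56 with 1 array left out. Probe set 17480735 also kept the groups apart, with 9.30, 9.48 and 9.47 in MKO, against 9.29, 9.04 and 8.65 in WT (0.42, SE 0.17). These 2 of the 8 had all MKO arrays above all WT arrays, a pattern of 4.81% of all rows. Where along the transcript these probe sets lie was not analysed here.

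**Figure D3:**
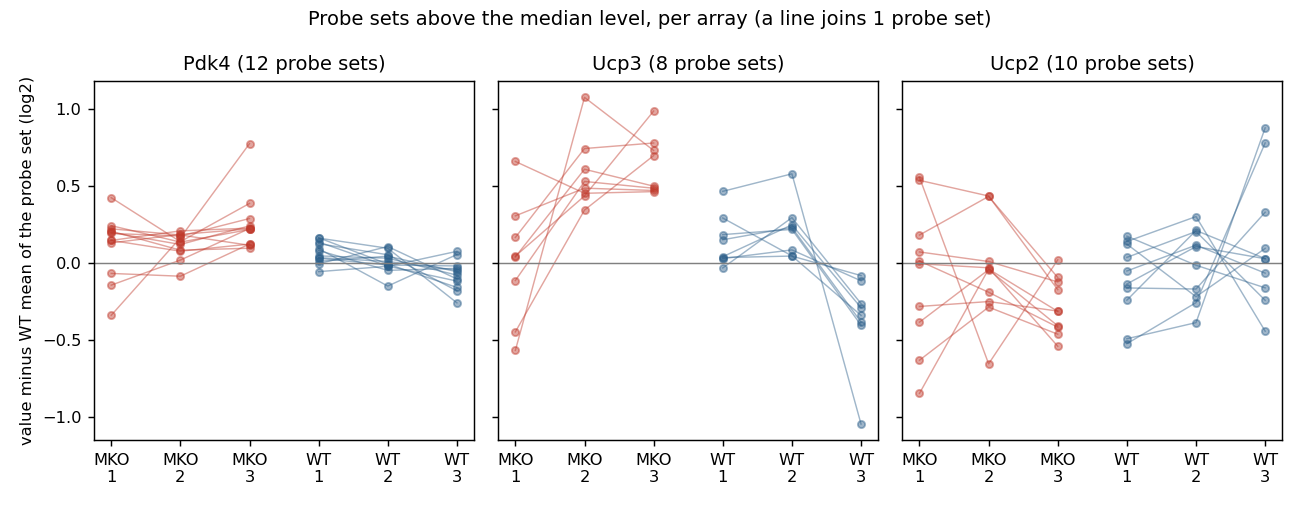
Values of the probe sets above the median level for Pdk4 (12), Ucp3 (8) and Ucp2 (10), each minus its own WT mean (log2), on the MKO arrays (red) and the WT arrays (blue). A line joins the values of 1 probe set within a group and has no order in it. The Ucp3 lines are lowest in WT replicate 3 and spread widely in MKO replicate 1.

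Among the listed fast fibre markers, Myh4 and Pvalb varied most between these arrays. In MKO replicate 1 the fast glycolytic myosin Myh4 stood at 5.11, against 7.94 and 11.51 in the other MKO arrays and 9.48 to 11.72 in WT. The fast fibre calcium buffer Pvalb stood at 5.64 there, against 7.73 and 7.92 in the other MKO arrays and 7.30 to 8.23 in WT. WT replicate 3, the array with the lowest Ucp3, had the highest Myh4 and Pvalb. MKO replicate 3, the array with the highest Ucp3, had the next highest of both (11.51 and 7.92). MKO replicate 1, the lowest in both, had a Ucp3 of 8.51, above WT replicate 3 only. The Myh4 difference was −2.51 (SE 1.11, unadjusted p = 0.0414) with overlapping arrays. The fast troponin Tnnt3 lay between 11.66 and 11.77 in MKO and between 11.71 and 11.76 in WT, and the fast myosins Myh2 and Myh1 differed by −0.09 (SE 0.08) and 0.08 (SE 0.18). Myh1 lay between 9.94 and 10.73 in MKO and between 9.96 and 10.61 in WT. Over the whole list of 13 muscle fibre markers, 9 stood lower in MKO, where 53.4% of all genes did. The list's mean level ranged from 9.56 to 10.3 in MKO and from 10.1 to 10.3 in WT. The part of fibre make-up in the Ucp3 values was not tested.

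Ucp2 stood lower in MKO, opposite to its neighbour. It had 6.09, 6.11 and 6.03 in MKO, against 6.22, 6.33 and 6.34 in WT. The arrays lay close within each group and did not overlap, with 0.11 between the nearest. The means were 6.08 ± 0.04 in MKO and 6.30 ± 0.06 in WT (SD, n = 3 each), a difference of −0.22 (SE 0.12, 95% interval −0.47 to 0.03, unadjusted p = 0.0822), or 0.859-fold. Its probe sets were less uniform than its means. Of 15, 12 stood lower in MKO, where 51.3% of all rows did. Differences ran from −1.23 to 0.27, and the lowest, 17480753, was a dim one. The 10 brighter probe sets averaged −0.14. The probe set with the smallest p, 17480750, stood at 6.96, 7.30 and 7.12 in MKO, against 7.54, 7.70 and 7.52 in WT (−0.46, SE 0.18, unadjusted p = 0.0303). With the median in place of the mean of the probe sets, the gene's difference was 0.02.

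Leucocyte markers, listed because immune cells are rich in Ucp2, were mostly lower in MKO. Of 9 measured, 7 stood lower in MKO, where 53.4% of all genes did, with a median difference of −0.14. The 2 that stood higher were Cd52 (0.25, SE 0.18) and Cd3e (0.09, SE 0.18). The list's mean level ranged from 4.37 to 4.48 in MKO and from 4.39 to 4.74 in WT, so its arrays overlapped. The macrophage marker Cd68 stood at 5.24, 5.58 and 6.06 in MKO, against 6.36, 7.08 and 5.89 in WT (−0.82, SE 0.26, unadjusted p = 0.00832), and the integrin Itgam differed by −0.23 (SE 0.16). The pan-leucocyte marker Ptprc stood between 3.53 and 4.05 in MKO and between 3.58 and 4.29 in WT, below the median level of all rows. Most of the listed leucocyte markers lay below it too, Itgam, Cd52 and Cd3e among them. All 7 endothelial markers stood lower as well, with a median of −0.22, and Cldn5 (−0.73, SE 0.15) and Tek (−0.24, SE 0.13) had the smallest p. The list's mean level ranged from 6.77 to 6.96 in MKO and from 6.89 to 7.25 in WT. All 6 fibroblast markers stood lower, with a median of −0.33. Pdgfra (−0.34, SE 0.14) and Col1a2 (−0.34, SE 0.17) had the smallest p, and the list's mean level ran from 7.41 to 8.002 in MKO and from 7.81 to 8.18 in WT. The part of these cells in the Ucp2 values was not tested.

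The other marker lists were mixed in direction. Of 7 adipocyte markers, 4 stood lower and 3 higher, with Fabp4 at −0.21 (SE 0.12) and Cfd at −0.22 (SE 0.21). The adipocyte list's mean level ranged from 5.68 to 6.61 in MKO and from 5.81 to 6.29 in WT. Of 3 brown adipocyte markers, 2 stood higher, Cidea at 0.11 (SE 0.12) and Ucp1 at 0.02 (SE 0.20). Ucp1, the uncoupling protein of brown fat, was dim, with 3.48, 2.89 and 3.32 in MKO, against 2.97, 3.32 and 3.35 in WT. Smooth muscle markers were split evenly, with Tagln at 0.10 (SE 0.12) and Myh11 at −0.05 (SE 0.12). Of 3 Schwann cell markers, 2 stood higher, Sox10 at 0.21 (SE 0.16) and Mbp at 0.19 (SE 0.16). None of these markers passed the adjusted threshold.

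Whether the paired genes changed unequally was asked within each array. Ucp3 minus Ucp2 was 2.42, 2.97 and 3.11 in MKO, against 2.42, 2.39 and 1.80 in WT. The lowest MKO array and the highest WT array lay together to the second decimal. The MKO minus WT change of this quantity was 0.63 (exact two-sided permutation test, p = 0.1, adjusted p = 0.2 over 2 pairs), and 0.1 is the smallest p that 3 against 3 arrays allow. It was 0.38 with the median of the probe sets (exact permutation p = 0.6) and 0.43 without WT replicate 3. Pdk4 minus Pdk2 was 2.79, 2.94 and 2.97 in MKO, against 2.72, 3.04 and 2.75 in WT, with overlap. Its change was 0.06 (exact two-sided permutation test, p = 0.8) and became 0.20 (p = 0.1) when only probe sets above the median level were used.

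**Figure D4:**
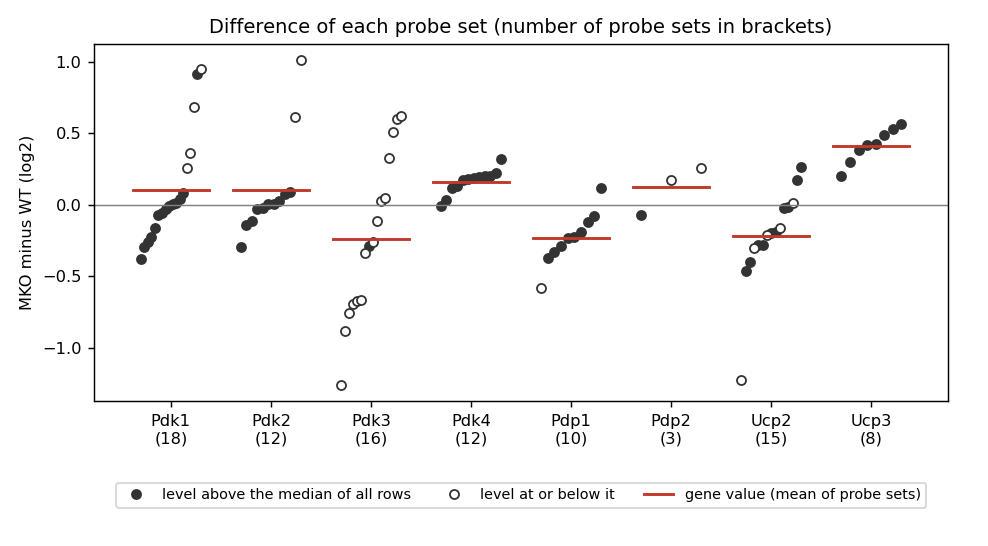
Difference of each of the 94 probe sets, MKO minus WT on the log2 scale, by gene, with filled points for probe sets above the median level of all rows and open points for those at or below it. Red lines are the differences of the gene values. Most filled points of Pdk1 and Pdk2 lie near 0, apart from 1 of Pdk1 at 0.92, and all of their open points lie above 0, while all points of Ucp3 and 11 of 12 of Pdk4 lie above 0.

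The complex that these kinases act on showed no gene past the threshold. Of 13 measured genes of the pyruvate dehydrogenase complex and of pyruvate entry, 0 were called, 8 stood higher and 5 lower, and the median difference was 0.03. The catalytic subunits Pdha1 (−0.01, SE 0.07) and Pdhb (−0.02, SE 0.08), the acetyltransferase Dlat (0.05, SE 0.10) and Dld (−0.02, SE 0.08) stood close to no difference. The 3 with the smallest p were the lactate and pyruvate transporters Slc16a1 (0.19, SE 0.10, arrays apart) and Slc16a3 (−0.28, SE 0.19) and the lactate dehydrogenase Ldha (0.11, SE 0.12). The mitochondrial pyruvate carrier genes, named Brp44l and Brp44 on the array and now Mpc1 and Mpc2, differed by 0.06 each. Of 6 genes that supply thiamine and lipoate cofactors, 2 stood higher and 4 lower, with a median of −0.09. Glrx5 (0.14, SE 0.10), Lipt2 (−0.17, SE 0.15) and Slc19a3 (0.18, SE 0.19) had the smallest p.

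The branched-chain ketoacid and 2-oxoglutarate dehydrogenases are built like pyruvate dehydrogenase, and a relative of the Pdk kinases, Bckdk, switches off the branched-chain enzyme. Of 7 genes of these complexes, with the kinase and phosphatase of the branched-chain one, 5 stood higher and 2 lower, with a median of 0.10 and 0 called. Bckdk stood at 8.78, 8.96 and 8.77 in MKO, against 8.59, 8.74 and 8.51 in WT. Its arrays did not overlap, with a difference of 0.22 (SE 0.09, unadjusted p = 0.0381). Bckdhb (0.23, SE 0.13) and Bckdha (0.15, SE 0.09) are subunits of the enzyme it inhibits. Among 7 relatives of the uncoupling proteins and adenine nucleotide carriers, 4 stood higher and 3 lower, with a median of 0.02. Slc25a27 (0.23, SE 0.15), Slc25a5 (0.18, SE 0.12) and Slc25a14 (−0.14, SE 0.19) had the smallest p, and Slc25a4, the adenine nucleotide carrier of muscle, differed by −0.02 (SE 0.07).

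Among 23 regulators known to act on Pdk4 or Ucp3, 16 stood higher and 7 lower in MKO, with a median difference of 0.03 and 0 called. Foxo1, a transcription factor that fasting activates and that is known to induce Pdk4, stood at 6.69, 6.69 and 6.89 in MKO, against 6.47, 6.38 and 6.42 in WT. All MKO arrays lay above all WT arrays, and the difference was 0.33 (SE 0.11, unadjusted p = 0.013). Of the 23 regulators, Foxo1 was the only 1 with an unadjusted p under 0.05, where 4.33% of all genes had one. Klf15 (0.20, SE 0.11), a glucocorticoid-induced factor, and Ppara (0.25, SE 0.14), the PPAR of fatty acid oxidation, also had arrays apart, as did Esrrg (0.18, SE 0.12). That made 4 of the 23 regulators with arrays apart, where 9.25% of all genes were. Without a gap between the groups, Rxrg differed by 0.26 (SE 0.17), the deacetylase Sirt3 by 0.20 (SE 0.15) and the coactivator Ppargc1a by 0.19 (SE 0.17). Smaller differences were seen in Ppard (0.08, SE 0.14), Esrra (−0.00, SE 0.12), Foxo3 (0.03, SE 0.13) and the glucocorticoid receptor Nr3c1 (−0.07, SE 0.11). The part of these regulators in the Pdk4 and Ucp3 values was not tested.

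Among 23 measured fatty acid genes that respond to fasting or PPARs, 18 stood higher and 5 lower, with a median difference of 0.07 and 0 called. At an unadjusted p under 0.05 there were 3, all higher, where 1.92% of all genes were higher and 2.41% lower. Cpt1b, the muscle enzyme that loads fatty acids onto carnitine for entry into mitochondria, differed by 0.58 (SE 0.11). It was read by only 1 probe set, where the median gene had 8. Plin5, a lipid droplet coat protein, differed by 0.46 (SE 0.10, 9 probe sets) and the thioesterase Acot2 by 0.25 (SE 0.10, 4 probe sets). Ucp3 lay between Plin5 and Acot2 in the size of its difference, and Pdk4 below both. The lists were written with earlier results of these data known and are not independent support.

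**Figure D5:**
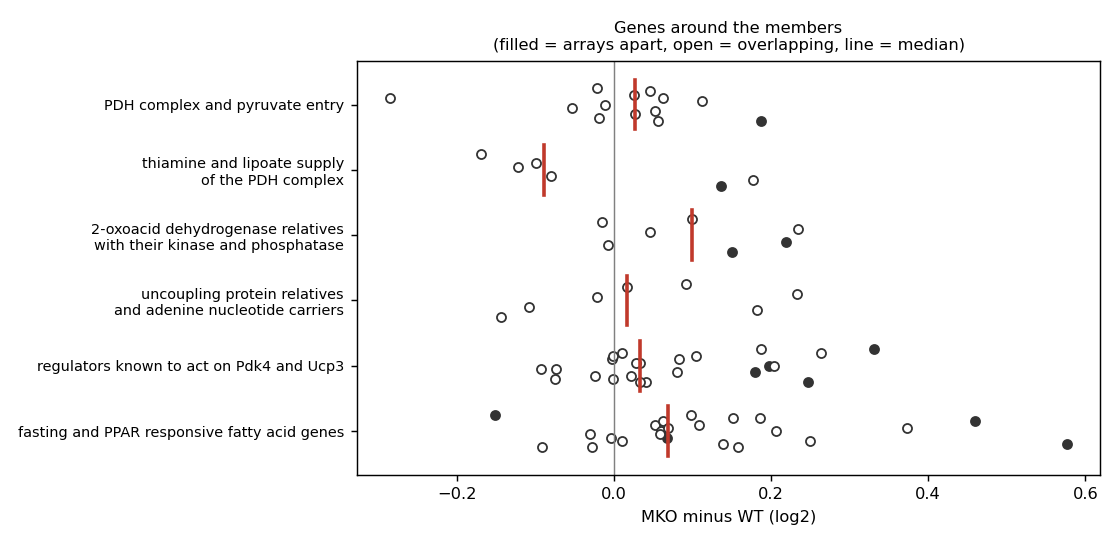
Difference of each gene in 6 lists around the members, MKO minus WT on the log2 scale, with filled points where all MKO arrays lay on one side of all WT arrays, open points where the arrays overlapped, and a red line at each list's median. List medians run from −0.09 (thiamine and lipoate supply) to 0.10 (2-oxoacid dehydrogenase relatives).

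The genes whose pattern over the 6 arrays was most like that of Ucp3, by the root mean square difference of values centred on each gene's own mean, were Morn2 (0.09), Atp5sl (0.11) and Cox7b (0.11) among 10426 genes above the median level. The same measure of Ucp3 about its own mean was 0.34. In Cox7b, a subunit of cytochrome c oxidase, WT replicate 3 was the lowest array (4.78), and MKO replicate 1 (5.20) lay within the WT range of 4.78 to 5.46, as it did for Ucp3. The nearest to Pdk4 were Ptgr2 (0.02), Fam110b (0.03) and Uqcrc2 (0.03), against 0.10 for Pdk4 about its own mean. Uqcrc2, a core subunit of respiratory complex III, stood at 9.79, 9.76 and 9.91 in MKO, against 9.67, 9.69 and 9.53 in WT, a difference of 0.19 (SE 0.08). These genes were picked for their likeness over the same 6 arrays, so similar differences and array orders follow from the choice. Their likeness is given as a description.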

How the data were processed

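RNA of the soleus of 3 MKO and 3 WT mice was hybridised to Affymetrix Mouse Gene 2.0 ST arrays, 1 per mouse. The authors deposited log2 values from Affymetrix Expression Console with RMA (robust multi-array averaging), per the submitters' processing notes, which here carry no version or build. Its design text names a gene-level export, but the table holds 269751 rows with several per gene, treated as probe sets. Genes were named through the platform's old annotation. Of the rows, 233753 had 1 symbol, 5106 several and 30892 none, and genes were built from rows with 1 symbol. A gene's value was the mean of its probe sets.

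MKO minus WT was fitted over all genes, and separately over all rows, with limma 3.58.1 under R 4.3.3 (eBayes, variance trend on, two-sided, Benjamini-Hochberg, threshold 0.05). P-values are from limma unless another test is named. The LPE test of the study, named in its design text, was re-implemented as an alternative. The fits were also run on simulated data in which genes varied independently, so that run does not vouch for them on these arrays. The number of arrays limits the precision, and the labels call the arrays biological replicates. The members, lists and tests were chosen with earlier results of these data known. Named genes were the members, Gna13, up to 3 genes per list and 2 per marker list by smallest p, and 3 nearest profiles each for Ucp3 and Pdk4, leaving out predicted, receptor and small RNA genes. Acta1, Myh7, Tnnt3, Myh2, Myh1, Ptprc, Cd52, Cd3e, Pdha1, Pdhb, Dlat, Dld, Mpc1, Mpc2, Slc25a4, Esrrg, Rxrg, Sirt3, Ppargc1a, Ppard, Esrra, Foxo3 and Nr3c1 were added after their values were seen. Promoters came from RefSeq on GRCm38.p6, where 7 of 8 members matched. Other alternatives were robust moderation, no trend, array weights, a replicate block, quantile normalization, median centring, filters on level, the median of probe sets, and each array left out. Tables and figures were made with Python 3.11.15.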

Additional observations from a re-analysis of the deposited data

How the results depend on the processing

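In no alternative did a member gene or a member probe set pass the adjusted threshold. Over all genes the count of calls was 1 with array weights, 25 by the LPE test and between 0 and 1 with an array left out. Pdk3, Pdk4, Pdp1 and Ucp3 kept their sign in every alternative run; Pdk3 has no value among genes above the median level, since its level is below it. The difference of Pdk1 turned to −0.11 with the median of probe sets and to −0.0315 with probe sets above the median level only. That filter also turned Pdk2 to −0.0406 and Pdp2 to −0.0694, and leaving the dim probe sets out is what changed these values. Ucp2 turned to 0.0239 with the median of probe sets. Pdk4 minus Pdk2 turned to −0.0122 after quantile normalization (exact permutation p = 0.9), and the cause was not tested. An unadjusted p under 0.05 held in 12 of 16 alternatives for Pdk4 and in 9 of 16 for Ucp3. With an array left out the difference ranged from 0.12 to 0.20 for Pdk4, from 0.23 to 0.61 for Ucp3, from −0.26 to −0.20 for Ucp2 and from −0.29 to −0.14 for Pdp1. The adjusted p of Ucp3 ranged from 0.501 to 0.9999. Median centring turned the split at an unadjusted p under 0.05 to 545 genes higher and 354 lower, against 444 and 558.

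Deviations of same-numbered arrays from their group means correlated at −0.0881, 0.0907 and −0.236 over genes. The highest correlation was 0.296, between MKO replicate 1 and WT replicate 3. With 3 arrays a group the deviations cancel within each group, so these values cannot decide whether the replicate numbers pair the arrays. With the replicate number as a block, 0 genes and 0 members were called, and the unadjusted p was 0.0254 for Ucp3 and 0.0269 for Pdk4.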
